A study of Mus musculus with 30 samples.

Results

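The genes described here are 45 listed genes of striated muscle, meaning skeletal and heart muscle, followed in medullary thymic epithelial cells (mTECs). They were taken by symbol from a list that uses no measured value as its rule, although it was drawn up with earlier results of these data known, out of 55011 gene symbols in the mTEChi count tables and 35999 symbols summed from transcripts in the Aire-GFP+ tables. By role the list holds 5 regulators of muscle transcription, 12 thin filament genes, 12 thick filament genes, 6 genes of the Z-disc and scaffold, 5 of calcium handling, 2 of the nerve-muscle synapse and 3 of energy supply. By form, the list labels 22 as skeletal, 7 as cardiac and 16 as shared by both kinds of muscle. The label shared also covers all 5 regulators, although Myod1, Myf5, Myog and Myf6 are factors of skeletal muscle.

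The series measured polyadenylated RNA of mTECs from thymi of female C57BL/6J mice aged 4 to 6 weeks, with 1000 sorted cells in each library. The Aire-GFP+ cells came from mice for which the labels name no treatment, as 3 WT and 2 Aire-KO libraries. The mTEChi cells came in 8 groups of 2 libraries: WT and Aire-KO with an intraperitoneal injection of PBS or of spermidine, WT injected with DMSO or topotecan, and, with no treatment named, the genotypes Foxn1-cre Nfe2l2+/+ and Foxn1-cre Nfe2l2 fl/fl. Topotecan is an inhibitor of DNA topoisomerase I, spermidine is a natural polyamine, and Foxn1-cre acts in thymic epithelium, so the control mice of the Nfe2l2 experiment carry the Cre as well. All of the cells had been freed of CD45+ blood cells and sorted by flow cytometry, and no source used here gives the doses, the treatment times, the surface gate of mTEChi or the structure of the Aire-KO allele. The 6 libraries of NOD mice and the 3 samples of F1 mice were not analysed here.

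mTECs express genes of peripheral tissues at low level, which lets developing T cells meet tissue proteins before they leave the thymus, and many of these transcripts depend on the transcription regulator Aire. A minority of mTECs takes on features of other cell types, muscle among them, and the thymus has long been known to contain muscle-like cells. In skeletal muscle the factors Myod1, Myf5, Myog and Myf6 bind E-box sequences and switch on genes of the sarcomere, in which actin thin filaments slide along myosin thick filaments, while heart muscle builds a similar sarcomere without these 4 factors.

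The depth was 6577151 to 12612775 summed counts in the Aire-GFP+ libraries and 2027205 to 5724045 in the mTEChi libraries. Levels are given as CPM, the count of a gene relative to the scaled total of its library, after edgeR's TMM scaling, where a gene near 1 CPM rests on a handful of reads. Markers of mTEC identity were 9 genes: Epcam, Foxn1, Krt5, Krt8, Cd80, H2-Aa, Aire, Fezf2 and Tnfrsf11a. Their sum, which includes the targeted gene Aire, was 12695 to 12920 CPM in WT libraries of Aire-GFP+ cells. It was higher in both Aire-KO libraries, at 23262 and 26331 CPM. Over the mTEChi libraries it was 7786 to 20798 CPM. The Aire transcript itself was 1603, 1686 and 1671 CPM in the WT and 1508 and 1774 CPM in the Aire-KO libraries of Aire-GFP+ cells. In mTEChi it was 1621, 1638, 1691 and 1814 CPM in WT and 5075, 4156, 4096 and 4126 CPM in Aire-KO libraries, a log2 difference of 1.37 (adjusted p = 8.36e-07, edgeR). 1 Aire-KO library of Aire-GFP+ cells thus lay below and the other above all WT libraries, and all Aire-KO libraries of mTEChi lay above WT. Since the changed exons are not given, this count does not check the genotype. Every direction below is between libraries labelled Aire-KO and libraries labelled WT. The Nfe2l2 transcript was 90.7 and 91.4 CPM in the Nfe2l2+/+ and 105 and 86.6 CPM in the Nfe2l2 fl/fl libraries, and for the same reason it checks nothing.

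2 mTEChi libraries stood apart from their partners in these genes. Between the 2 Aire-KO PBS libraries 10 of the 45 genes were at least 4-fold apart, all 10 higher in replicate 2, against 0.896% of all genes tested. Between the 2 DMSO libraries 15 of the 45 were at least 4-fold apart, 14 of them higher in replicate 1, against 3.0025% of all genes tested. In the other 6 groups 1 to 4 of the 45 genes were that far apart, against 1.18% to 4.85% of all genes tested. The summed level of the skeletal forms was 716 and 1434 CPM in the Aire-KO PBS libraries and 983 and 410 CPM in the DMSO libraries, against 482 and 510 CPM with PBS in WT. Acta1, the actin of skeletal muscle thin filaments, was the extreme case at 0 and 421 CPM in the Aire-KO PBS libraries. Summed fibroblast markers were 165 and 195 CPM and summed smooth muscle and pericyte markers 839 and 827 CPM in the same Aire-KO PBS libraries, so the 2 libraries were close in these. The summed level of 69 other striated muscle genes was also close, at 1134 and 1193 CPM, so the gap did not extend to that sum. Of those genes, however, 14 were at 0 in replicate 1 and 7 in replicate 2. In the DMSO libraries the fibroblast sum was 335 and 716 CPM, lower where the muscle genes were higher. The sum of the 69 genes was 1500 and 1187 CPM there, higher in the same library as the listed genes.

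Promoters of 36 of the 45 genes are in the RefSeq set for build GRCm38.p6, as 250 bases before to 50 bases after a start site. Those of 5 genes called lower in Aire-KO Aire-GFP+ cells, of which Acta1 is also a marker gene of the list, are shown, 5′ to 3′ on the strand of the gene, because the E-box, TATA box, MEF2 motif and CArG box are the sequences through which muscle regulators, general transcription factors, Mef2 proteins and serum response factor are known to act. Capitals mark CANNTG (the E-box), TATAAA, the MEF2 motif and the CArG box on either strand. Tnni1 lies at chr1:135799171-135799470 on the plus strand, Myh3 at chr11:67078050-67078349 and Myh8 at chr11:67276874-67277173 on the plus strand, Actc1 at chr2:114052826-114053125 and Acta1 at chr8:123894726-123895025 on the minus strand.
Tnni1: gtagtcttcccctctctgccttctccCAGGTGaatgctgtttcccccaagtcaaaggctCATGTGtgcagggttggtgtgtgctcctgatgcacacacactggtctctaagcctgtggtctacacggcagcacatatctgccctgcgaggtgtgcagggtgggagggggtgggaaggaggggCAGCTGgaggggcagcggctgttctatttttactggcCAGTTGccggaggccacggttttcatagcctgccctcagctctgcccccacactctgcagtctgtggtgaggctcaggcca
Myh3: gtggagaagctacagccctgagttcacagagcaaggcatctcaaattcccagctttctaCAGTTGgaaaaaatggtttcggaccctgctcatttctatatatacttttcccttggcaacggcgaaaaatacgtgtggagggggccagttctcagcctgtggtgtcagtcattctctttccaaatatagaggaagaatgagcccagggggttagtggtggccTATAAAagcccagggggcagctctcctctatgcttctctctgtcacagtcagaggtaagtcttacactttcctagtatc
Myh8: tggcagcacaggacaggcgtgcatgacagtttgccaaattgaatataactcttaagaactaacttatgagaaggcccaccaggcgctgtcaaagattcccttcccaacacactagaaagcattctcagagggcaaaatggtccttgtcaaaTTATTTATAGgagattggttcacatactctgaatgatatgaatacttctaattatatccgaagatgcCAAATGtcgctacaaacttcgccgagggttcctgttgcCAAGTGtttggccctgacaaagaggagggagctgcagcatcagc
Actc1: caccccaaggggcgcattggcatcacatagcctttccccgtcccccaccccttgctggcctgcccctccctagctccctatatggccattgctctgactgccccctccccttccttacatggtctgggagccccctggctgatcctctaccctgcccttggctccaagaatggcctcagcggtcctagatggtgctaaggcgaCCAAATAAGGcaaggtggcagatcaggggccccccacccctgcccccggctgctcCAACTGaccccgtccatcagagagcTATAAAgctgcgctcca
Acta1: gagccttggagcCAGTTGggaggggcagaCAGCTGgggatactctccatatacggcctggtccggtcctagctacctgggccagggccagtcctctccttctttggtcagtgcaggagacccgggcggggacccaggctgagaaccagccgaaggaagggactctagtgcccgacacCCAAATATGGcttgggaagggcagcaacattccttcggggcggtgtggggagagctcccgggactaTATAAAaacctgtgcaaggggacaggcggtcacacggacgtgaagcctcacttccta
The window of Tnni1 held 4 CANNTG matches and none of the other motifs, that of Myh3 1 CANNTG and 1 TATAAA, and that of Myh8 2 CANNTG and a MEF2 motif that overlaps a TATAAA on the opposite strand. The windows of both actins, Actc1 and Acta1, held a CArG box and a TATAAA, with 1 CANNTG in Actc1 and 2 in Acta1. CANNTG was in 31 of the 36 promoters against 72.3% of all 32851 promoters of the set, and its form CAGCTG was in 15 against 16.3%. TATAAA was in 13 of 36 against 13.6% of all, the MEF2 motif in 6 against 3.19% and the CArG box in 4 against 1.63%. A run of 6 CA units, an alternating sequence of a type that can take the Z-DNA form, was in 0 of 36 against 1.01% of all. These are matches of letters and no measure of binding.

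Compared per length, the alpha-actinin gene Actn3 (chr19:4861216-4877909, minus strand), which anchors thin filaments in the Z-disc of fast muscle fibres, had the highest level of the 45 in both kinds of cell when all its transcripts are summed. In the 3 WT libraries of Aire-GFP+ cells it had 172 to 207 TPM (kallisto's relative transcript level, which allows for length). Tpm2, a tropomyosin of the thin filament that smooth muscle also uses, followed with 94.2 to 116 TPM, and the 2 ranges did not overlap. Among coding forms the order was the other way, since Tpm2-203 had 111, 89.5 and 106 TPM and Actn3-201 had 90.8, 89.2 and 97.1 TPM in the 3 libraries. Mylpf (52.4 to 87.1 TPM), Tnni1 (62.2 to 71.4 TPM) and Tnnt2 (52.0 to 53.7 TPM) came next and their ranges overlapped, except that Tnnt2 lay below Tnni1. In the 6 mTEChi control libraries (WT PBS, WT DMSO and Foxn1-cre Nfe2l2+/+) the median level per kilobase of exon was again highest for Actn3, at 98.7 CPM per kb, then Tpm2 at 54.8, Mylpf at 18.6, Myog at 17.6 and Des at 16.8 CPM per kb.

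The regulators were at low level apart from Myog. Myog, the factor that acts in differentiating muscle cells (chr1:134289989-134292548, plus strand), was 8.57, 10.9 and 17.6 CPM in WT and 10.9 and 22.1 CPM in Aire-KO Aire-GFP+ libraries. The 2 groups overlapped, and the log2 difference of 0.42 (SE 0.39) was not called (adjusted p = 0.42, edgeR). Mef2c, a partner factor that many other cell types use, was 9.81, 1.67 and 1.42 CPM against 1.19 and 0.568 CPM, with WT replicate 1 far above the rest (log2 difference -2.27, adjusted p = 0.108, not called). Myod1, the factor that commits cells to skeletal muscle, was 1.94, 0.793 and 0.283 CPM against 0.119 and 0 CPM, too low to be tested. Myf6 stayed at 0.714 to 2.07 CPM, and Myf5 was detected in 1 of the 5 libraries, at 0.553 CPM.

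In mTEChi, Myog and Mef2c were the regulators above 1 CPM in all 16 libraries. Myog was 26.2 and 73.7 CPM with PBS and 26.2 and 8.33 CPM with spermidine in WT, and 64.2 and 51.8 CPM with PBS and 33.5 and 76.1 CPM with spermidine in Aire-KO. It was 69.7 and 3.08 CPM with DMSO, 39.7 and 1.59 CPM with topotecan, 21.3 and 26.5 CPM in Nfe2l2+/+ and 53.3 and 42.8 CPM in Nfe2l2 fl/fl. The 2 replicates stood far apart in the DMSO and topotecan groups, and Myog was not called in any comparison by edgeR with the low-count filter. Without that filter it was called higher in Aire-KO (log2 difference 0.93, adjusted p = 0.000139, edgeR). With the filter the same log2 difference was not called (adjusted p = 0.401, edgeR), so the call rests on that setting. Mef2c was 2.65 to 28.0 CPM over the 16 libraries. Myod1 was listed at 0 in 9 of the 16 libraries and reached 13.8 CPM in DMSO replicate 1. In the 4 Aire-KO libraries it had no count, where 3 counts over a group would be 0.577 CPM with PBS and 0.752 CPM with spermidine, against 0.364, 0, 7.08 and 6.57 CPM in WT (adjusted p = 0.274, not called).

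**Figure D1:**
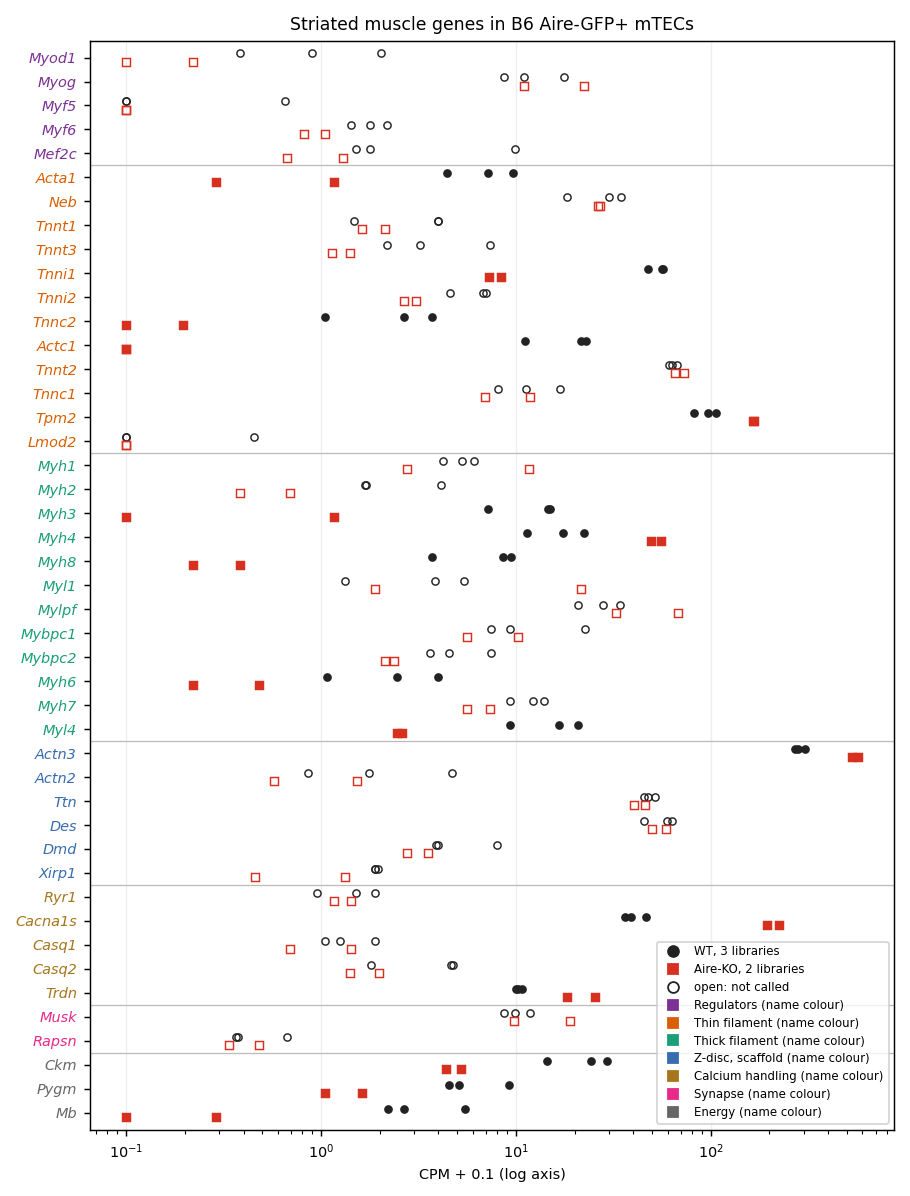
Level of each of the 45 genes in the 5 Aire-GFP+ libraries, as CPM + 0.1 on a log axis, with WT as circles, Aire-KO as squares, filled where the gene was called, and names coloured by role. The 2 Aire-KO points of Tnni1, Actc1, Myh3, Myh8 and Myl4 lie to the left of all 3 WT points, and those of Actn3, Cacna1s, Myh4, Tpm2 and Trdn lie to the right.

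In Aire-GFP+ cells, 16 striated muscle genes differed between Aire-KO and WT, 5 higher and 11 lower, where called means an adjusted p under 0.05 in edgeR's quasi-likelihood test over all 17923 genes tested. 41 of the 45 had enough counts to be tested (Myod1, Myf5, Lmod2 and Rapsn did not), and 25 of those were not called. Of all genes tested 41.3% were called, 19.0% higher and 22.3% lower, so the count is no larger than the background. The median log2 difference of the 41 was -0.88, also with Actc1 at the bound its 0 counts allow, against -0.115 for all genes tested. In a bulk library, fewer cells of a type and less RNA in each cell cannot be told apart.

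Of the 11 thin filament genes tested, 4 fell (Acta1, Actc1, Tnni1 and Tnnc2) and 1, Tpm2, rose. Tnni1, the troponin I of slow fibres (chr1:135779434-135810989, plus strand), was 55.8, 56.9 and 47.6 CPM in WT and 7.14 and 8.23 CPM in Aire-KO. It was lower in both Aire-KO libraries than in every WT library (log2 difference -2.79, SE 0.19, adjusted p = 5.54e-05, edgeR). Most of its WT counts, 77.5 to 92.4%, were assigned to transcript Tnni1-207. The promoter shown for Tnni1 has its start site at base 135799421, inside the gene. Actc1, the actin of heart muscle (chr2:114047282-114053548, minus strand), was 22.7, 11.02 and 21.4 CPM in WT, and no Aire-KO library had a count. With 3 counts over the Aire-KO group as the floor, Actc1 was at least 116-fold lower (adjusted p = 0.000246, edgeR). Acta1, its skeletal counterpart (chr8:123891769-123894751, minus strand), was 7.05, 4.32 and 9.54 CPM in WT and 1.07 and 0.189 CPM in Aire-KO, a log2 difference of -3.50 (SE 0.75, adjusted p = 0.00757, edgeR) with no overlap.

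Tnnc2, the calcium-binding troponin C of fast fibres, was 3.59, 2.56 and 0.945 CPM in WT and 0 and 0.0946 CPM in Aire-KO. That rests on 1 count in Aire-KO against 65 in WT, a ratio of 42.3 in favour of WT with an exact 95% counting interval of 7.33 to 1700 (adjusted p = 0.0113, edgeR). Ube2c on the opposite strand covers 74% of the Tnnc2 exons and the libraries carry no strand. Ube2c was 112, 57.3 and 90.9 CPM in WT and 70.6 and 81.7 CPM in Aire-KO, and was not called (log2 difference -0.19). The part of this overlap in the Tnnc2 counts was not tested. Tpm2 (chr4:43514711-43523765, minus strand) was 106, 82.3 and 97.0 CPM in WT and 166 and 165 CPM in Aire-KO, higher in both Aire-KO libraries than in every WT library by 0.80 on the log2 scale (SE 0.13, adjusted p = 0.00233, edgeR). Tnnt2, the troponin T of heart muscle, was 67.0, 63.1 and 60.8 CPM against 72.3 and 65.3 CPM and was not called (log2 difference 0.11, SE 0.13), and the giant filament ruler Neb, at 34.6, 30.1 and 18.2 CPM against 27.0 and 26.3 CPM, was not called either (log2 difference -0.05). Of the Tnnt2 counts 42.0 to 51.6% were assigned to Tnnt2-215, a retained-intron form that shares 0 exon bases with the coding form Tnnt2-207.

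Among the thick filament genes all 12 were tested. 4 of these fell (Myh3, Myh8, Myh6 and Myl4) and 1, Myh4, rose. Myh3, the myosin heavy chain of embryonic muscle (chr11:67078300-67102291, plus strand), was 14.9, 7.05 and 14.5 CPM in WT and 1.07 and 0 CPM in Aire-KO, a log2 difference of -4.58 (SE 0.91, adjusted p = 0.0054, edgeR) without overlap. Myh8, the perinatal heavy chain (chr11:67277124-67308634, plus strand), was 8.43, 9.34 and 3.59 CPM in WT and 0.119 and 0.284 CPM in Aire-KO, lower in both (log2 difference -5.01, SE 0.76, adjusted p = 0.00159, edgeR). Myh4, the heavy chain of the fastest adult fibres, lies between them in the same gene cluster on chr11 and moved the other way. It was 17.4, 22.1 and 11.3 CPM in WT and 55.6 and 49.5 CPM in Aire-KO, higher in both by 1.63 on the log2 scale (SE 0.26, adjusted p = 0.00194, edgeR).

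The myosin heavy chains share stretches of sequence, which makes part of their counts uncertain. Of the 31-base words of the longest coding transcript, 30.4% in Myh4, 32.5% in Myh8, 39.7% in Myh1, 38.5% in Myh2 and 11.2% in Myh3 also occur in another gene. The adult forms Myh1 (4.15, 5.99 and 5.20 CPM against 11.5 and 2.65 CPM) and Myh2 (4.01, 1.59 and 1.61 CPM against 0.595 and 0.284 CPM) were not called, with adjusted p values of 0.559 and 0.0502. Mybpc1, a myosin-binding protein of slow fibres, was 9.26, 7.32 and 22.5 CPM against 5.47 and 10.1 CPM and was not called (adjusted p = 0.288). Myh6, a heavy chain of heart muscle, was 2.35, 0.97 and 3.87 CPM in WT and 0.119 and 0.379 CPM in Aire-KO (log2 difference -3.16, SE 0.97, adjusted p = 0.0318, edgeR). For Myh6 the call was lost when WT replicate 3 or either Aire-KO library was left out. Myh6 shares 32.5% of its 31-base words, nearly all with Myh7, a heavy chain of heart and slow skeletal muscle, which was not called (adjusted p = 0.0567, edgeR).

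Myl4, the light chain of atrial and embryonic muscle (chr11:104550663-104595753, plus strand), was 20.6, 16.6 and 9.26 CPM in WT and 2.50 and 2.37 CPM in Aire-KO, lower in both (log2 difference -2.66, SE 0.42, adjusted p = 0.00194, edgeR). The transcripts assigned differed as well. Transcript Myl4-201 held 0, 0 and 18.7% of the WT counts and 100% of the Aire-KO counts, that is 21 and 25 estimated counts, while Myl4-202, Myl4-203 and Myl4-204 held most of the WT counts and 0 in Aire-KO.

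Z-disc and scaffold genes were the most abundant group, and of the 6 tested only Actn3 was called in Aire-GFP+ cells. Actn3 was 306, 269 and 279 CPM in WT and 528 and 568 CPM in Aire-KO, higher in both by 0.95 on the log2 scale (SE 0.10, adjusted p = 0.000319, edgeR). The giant scaffold gene Ttn was 45.5, 51.5 and 47.3 CPM against 45.9 and 40.4 CPM (log2 difference -0.16, adjusted p = 0.425). The intermediate filament gene Des was 62.8, 59.2 and 45.4 CPM against 58.7 and 49.7 CPM (log2 difference -0.04, adjusted p = 0.871). Both groups overlapped in Ttn and Des.

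The transcript assignment separates 2 forms of Actn3. The full-length coding form Actn3-201 was 90.8, 89.2 and 97.1 TPM in WT and 78.0 and 85.1 TPM in Aire-KO, lower in both Aire-KO libraries than in every WT library. The retained-intron form Actn3-202, 982 bases long with 968 of them shared with Actn3-201 near its 3′ end, was 117, 82.9 and 78.4 TPM in WT and 270 and 278 TPM in Aire-KO. With protein-coding transcripts alone, an alternative added after the data were seen, the Actn3 difference was 0.33 on the log2 scale (adjusted p = 0.0342, edgeR), against 0.95 with all transcripts. Actn3-201 is the one coding transcript of Actn3 here, so its direction turns with the scale, higher after TMM scaling of coding counts and lower in TPM. Ctsf, which lies 297 bases beyond the end of Actn3 and is transcribed towards it, was 30.0, 36.9 and 22.0 CPM against 28.1 and 43.3 CPM and was not called (log2 difference 0.27).

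**Figure D2:**
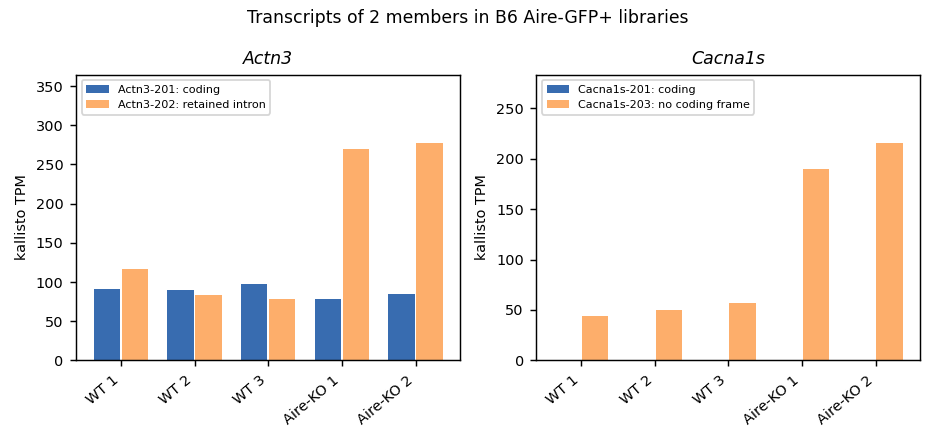
Level in TPM of 2 transcripts each of Actn3 and Cacna1s in the 3 WT and 2 Aire-KO libraries of Aire-GFP+ cells, 1 bar per library and transcript. The coding form Actn3-201 stays between 78.0 and 97.1 TPM while Actn3-202 is 270 and 278 TPM in Aire-KO, and nearly all Cacna1s signal is the non-coding form Cacna1s-203.

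Of the 5 genes of calcium handling, Cacna1s and Trdn were called, both higher. Cacna1s, the voltage sensor of skeletal muscle (chr1:136052750-136119822, plus strand), was 36.2, 38.6 and 46.5 CPM in WT and 193 and 225 CPM in Aire-KO, higher in both by 2.37 on the log2 scale (SE 0.15, adjusted p = 3.61e-05, edgeR). Between 85.0 and 99.2% of these counts were assigned to Cacna1s-203, a 1001-base transcript without a coding frame, and all of its bases lie within exons of the antisense gene Gm37759 (chr1:136116577-136119822, minus strand). With coding transcripts alone Cacna1s went the other way, by -1.20 on the log2 scale, and was not called (adjusted p = 0.145). In mTEChi, where Gm37759 has its own count, that gene was 5.83, 4.85, 6.73 and 3.51 CPM in WT and 19.5, 19.7, 35.5 and 21.7 CPM in Aire-KO (log2 difference 2.16, SE 0.45, adjusted p = 0.0034, edgeR), while Cacna1s was 0.438 to 6.92 CPM and 0 to 2.07 CPM and was not called. Without strand, reads from the 2 genes cannot be told apart.

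Trdn, triadin, which ties the calcium release channel to the calcium store, was 9.95, 10.1 and 10.7 CPM in WT and 18.2 and 25.4 CPM in Aire-KO. It was higher in both Aire-KO libraries by 1.09 on the log2 scale (SE 0.23, adjusted p = 0.00757, edgeR), and the call was lost without Aire-KO replicate 2 (adjusted p = 0.0724). The release channel Ryr1 (0.850 to 1.80 CPM in WT, 1.07 and 1.33 CPM in Aire-KO) and the calcium store proteins Casq1 (0.945 to 1.80 CPM, 0.595 and 1.33 CPM) and Casq2 (1.70 to 4.67 CPM, 1.31 and 1.89 CPM) were not called.

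The 3 energy genes all fell. Ckm, muscle creatine kinase, was 14.4, 29.4 and 24.3 CPM in WT and 5.12 and 4.26 CPM in Aire-KO (log2 difference -2.28, SE 0.35, adjusted p = 0.00174, edgeR). Pygm, the glycogen phosphorylase of muscle, was 4.42, 5.02 and 9.07 CPM in WT and 0.952 and 1.51 CPM in Aire-KO (log2 difference -2.30, SE 0.56, adjusted p = 0.0125, edgeR). Neither gene's groups overlapped. Mb, the oxygen store myoglobin, was 5.39, 2.12 and 2.55 CPM in WT and 0 and 0.189 CPM in Aire-KO, on 90 and 2 counts, a ratio of 29.3 in favour of WT with an exact 95% counting interval of 7.87 to 245 (adjusted p = 0.00855, edgeR). Apol6 overlaps 4.29% of the Mb exons on the opposite strand and was also lower (log2 difference -3.10, adjusted p = 0.0223, edgeR). The antisense gene Gm49540 overlaps 27.6% of the Mb exons, and the antisense gene A930016O22Rik overlaps 15.5% of the Ckm exons. The part of these overlaps in the counts was not tested. The calls of Pygm and Tnnc2 were lost without Aire-KO replicate 1, with adjusted p values of 0.0632 and 0.0611. At the synapse Musk, the receptor kinase that gathers acetylcholine receptors, was 11.8, 8.55 and 9.73 CPM against 9.64 and 18.9 CPM and was not called, and its partner Rapsn stayed at or under 0.567 CPM.

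By form, and beside 19.0% higher and 22.3% lower among all genes tested, 3 of 21 skeletal genes tested in Aire-GFP+ cells rose and 5 fell, 0 of 7 cardiac genes rose and 3 fell (Actc1, Myh6 and Myl4), and of the 10 shared genes tested, regulators aside, 2 rose and 3 fell. The call of Myh6 depends on single libraries, as given above. Form is the label of the list and is not exclusive, since Myl4 also belongs to embryonic muscle and Myh7 to slow fibres. The tally is therefore no clean split of heart from skeletal muscle. Summed over the skeletal forms, the level was 563, 520 and 520 CPM in WT and 939 and 954 CPM in Aire-KO. Most of each sum is Actn3 and Cacna1s, and without these 2 genes neither Aire-KO sum was above the WT range. Actn3 was 306, 269 and 279 CPM in WT and 528 and 568 CPM in Aire-KO. Cacna1s was 36.2, 38.6 and 46.5 CPM against 193 and 225 CPM. Much of that rise was assigned to the retained-intron form of Actn3 and the non-coding form of Cacna1s, as given above. The skeletal sum therefore does not show that skeletal forms rose as a set. Summed over the cardiac forms the level was 139, 117 and 126 CPM in WT and 95.2 and 82.2 CPM in Aire-KO, lower in both. The 13 skeletal and 4 cardiac genes that were tested and not called had adjusted p values above 0.05, which does not show that their levels were equal.

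Scaling moved the balance of these calls. With library totals alone in place of TMM, the median log2 difference of all genes tested went from -0.115 to -0.514, and the split of all calls from 3410 higher and 4000 lower to 1591 higher and 6250 lower. Under that scaling 22 of the muscle genes were called, 5 higher and 17 lower, and Actn3 (0.55), Tpm2 (0.40), Trdn (0.69) and Cacna1s (1.97) stayed on the higher side on the log2 scale.

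Markers of other cell types also differed between these libraries. Of 11 smooth muscle and pericyte markers tested, 2 were higher in Aire-KO (Myh11 and Rgs5) and 3 lower (Cnn1, Mylk and Notch3), and their summed level was 439, 491 and 412 CPM in WT and 634 and 525 CPM in Aire-KO. Of 6 fibroblast markers tested, Dcn and Lum were higher and Col1a1 and Col3a1 lower, with summed levels of 96.5, 116 and 71.5 CPM in WT and 329 and 254 CPM in Aire-KO. Col1a1, the main collagen of fibroblasts, was at 0 and 0.663 CPM in Aire-KO. Of 6 thymocyte markers 2 were lower (Cd4 and Ptprc), of 4 endothelial markers 1 was higher (Tek), and of 5 erythroid markers 0 were called. Of the 9 mTEC identity genes 4 were higher and 2 lower, Foxn1 among them. The part of these cell types in the muscle gene results was not tested.

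The second comparison of Aire-KO with WT was made in mTEChi, over the PBS and spermidine groups together, with 4 libraries on each side. Here 3 striated muscle genes were higher in Aire-KO (Actn3, Des and Acta1) and 5 were lower (Myh3, Myh8, Myl4, Tnni1 and Xirp1). 38 of the 45 were tested, and Myf5, Myf6, Tnnc2, Lmod2, Myh2, Actn2 and Rapsn were too low. Of all 18418 genes tested 22.8% were called, 10.3% higher and 12.5% lower, so 8 of 38 is again close to the background. The median log2 difference was 0.15 for the 38 and -0.0546 for all genes tested.

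Actn3 was 211, 270, 278 and 237 CPM in WT and 559, 492, 422 and 440 CPM in Aire-KO, with every Aire-KO library above every WT library (log2 difference 0.93, SE 0.11, adjusted p = 5.19e-05, edgeR). Myh3 was 28.0, 22.3, 69.0 and 15.3 CPM in WT and 0, 1.04, 0 and 0.518 CPM in Aire-KO, 353 counts against 4, with no overlap (log2 difference -6.29, SE 1.17, adjusted p = 0.00155, edgeR). These 2 were also the only genes of the 45 called with PBS alone, where 10.3% of all genes were called (5.21% higher and 5.08% lower), and with spermidine alone, where 9.11% were called (4.77% higher and 4.34% lower). With PBS alone the log2 difference was 1.13 for Actn3 and -5.37 for Myh3, and with spermidine alone it was 0.74 and -7.20.

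Tnni1 was 18.9, 21.8, 39.7 and 16.7 CPM in WT and 7.81, 10.0, 6.80 and 9.84 CPM in Aire-KO, lower in all 4 (log2 difference -1.47, SE 0.50, adjusted p = 0.0457, edgeR). Myh8 was 7.65, 0.97, 5.31 and 6.57 CPM against 0.434, 0.691, 0 and 1.04 CPM, with WT PBS replicate 2 inside the Aire-KO range (log2 difference -3.16, SE 0.92, adjusted p = 0.0236, edgeR). Myl4 was 4.73, 16.01, 2.48 and 10.95 CPM against 1.302, 3.11, 1.94 and 2.07 CPM, also with 1 WT library inside the Aire-KO range (log2 difference -1.93, SE 0.56, adjusted p = 0.0232, edgeR). All 3 were lower in both kinds of cell, but in mTEChi these calls depended on single libraries, with adjusted p values up to 0.319 for Tnni1, 0.238 for Myh8 and 0.226 for Myl4 over the alternatives. Tnni1 kept its call only when the library left out was WT spermidine replicate 2. Myh8 lost its call without WT PBS replicate 1, WT spermidine replicate 2, either Aire-KO PBS library or Aire-KO spermidine replicate 1. Myl4 lost its call without replicate 2 of either WT group, Aire-KO PBS replicate 1 or either Aire-KO spermidine library.

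Des was 37.1, 64.0, 43.9 and 38.6 CPM in WT and 77.7, 103, 98.1 and 75.6 CPM in Aire-KO, higher in all 4 (log2 difference 0.96, SE 0.24, adjusted p = 0.0115, edgeR). The call was lost without WT PBS replicate 1 or Aire-KO spermidine replicate 1 (adjusted p up to 0.133 over the alternatives). Smooth muscle also makes desmin. Of the 11 smooth muscle and pericyte markers, 2 were higher in the same libraries (Myh11 and Cspg4) and 5 lower (Acta2, Cnn1, Mylk, Notch3 and Pdgfrb), with a summed level of 879 to 950 CPM in WT and 816 to 844 CPM in Aire-KO. Fibroblast markers were lower for Col1a1 and Pdgfra (2 of 7 tested), and 0 of the endothelial, thymocyte and erythroid markers were called. Of the 9 mTEC identity genes 7 were higher, Aire among them, and 1 lower. Their summed levels, Aire included, were 11227 to 11778 CPM in WT and 19384 to 20798 CPM in Aire-KO. Their part in the result was not tested.

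Xirp1, a scaffold protein of the junctions of heart and skeletal muscle, was 9.47, 6.79, 3.19 and 13.1 CPM in WT and 1.74, 1.04, 0.486 and 2.07 CPM in Aire-KO, lower in all 4 (log2 difference -2.59, SE 0.73, adjusted p = 0.0199, edgeR). The call was lost without WT PBS replicate 1, WT spermidine replicate 2, either Aire-KO PBS library or Aire-KO spermidine replicate 1 (adjusted p up to 0.145 over the alternatives). Acta1 was 0, 18.4, 9.91 and 4.38 CPM in WT and 0, 421, 106 and 32.6 CPM in Aire-KO, so the groups overlap at 0. Its log2 difference was 3.94 (SE 1.34, adjusted p = 0.0471, edgeR). Without Aire-KO PBS replicate 2, which leaves the library at 0 CPM alone in that group, it was -2.28. With spermidine alone it was 3.24 (SE 1.90, not called), with both Aire-KO libraries above both WT libraries. The call was lost with library totals alone and with DESeq2. Of the 8 libraries, Aire-KO PBS replicate 1 was the only one whose omission kept the call. In Aire-GFP+ cells the log2 difference of Acta1 was -3.50, with the opposite sign, but the difference between the 2 kinds of cell was not tested, as they were quantified separately.

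**Figure D3:**
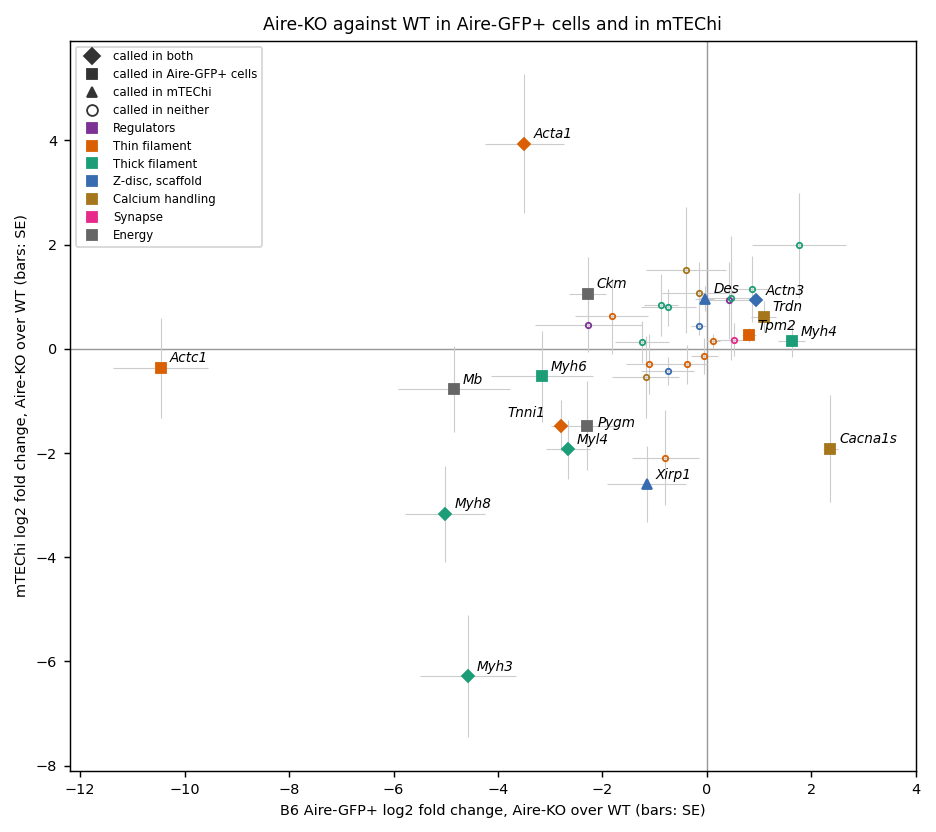
Log2 difference of Aire-KO over WT with its standard error for the 37 genes tested in both kinds of cell, in Aire-GFP+ cells on the horizontal and in mTEChi on the vertical axis, coloured by role and shaped by call. Actn3 is the only gene called higher in both, Tnni1, Myh3, Myh8 and Myl4 are called lower in both, Acta1 is called with opposite signs, and 20 genes are called in neither.

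Setting the 2 comparisons side by side, 37 of the 45 genes were tested in both, and they share no library. Of the 9 other genes called in Aire-GFP+ cells alone, Actc1 was 17.5, 36.9, 12.0 and 0.876 CPM in mTEChi WT and 1.302, 33.9, 3.89 and 8.28 CPM in Aire-KO, with overlapping groups (adjusted p = 0.822). Myh4 was 43.7, 26.7, 32.9 and 35.1 CPM against 27.8, 28.0, 44.2 and 62.1 CPM (adjusted p = 0.764). Ckm was 4.37, 18.4, 12.4 and 10.5 CPM against 8.68, 25.6, 55.9 and 7.77 CPM (adjusted p = 0.315). The groups overlapped for all 9 genes, namely Actc1, Myh4, Ckm, Tpm2, Trdn, Cacna1s, Myh6, Pygm and Mb.

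The other genes of highest level in mTEChi were not called. Ttn was 222 CPM or more in all 8 libraries, with the WT libraries close together: it was 242, 225, 226 and 225 CPM in WT and 290, 472, 222 and 290 CPM in Aire-KO (log2 difference 0.45, adjusted p = 0.0893). Tpm2 was 135, 155, 101 and 128 CPM against 143, 183, 128 and 164 CPM (log2 difference 0.26, adjusted p = 0.174). Neb was 70.3, 38.8, 63.7 and 68.4 CPM against 46.0, 76.7, 52.5 and 45.6 CPM, with overlapping groups (log2 difference -0.13, SE 0.34). Mybpc1 was 13.7 to 66.7 CPM and Myh1 0 to 133 CPM over all 16 libraries, with their highest values in Aire-KO PBS replicate 2 and DMSO replicate 1. With library totals alone the median of all genes tested in mTEChi moved to -0.232 and the split of calls from 1890 higher and 2305 lower to 1167 higher and 3222 lower. The muscle genes then gave 7 calls, 2 higher and 5 lower.

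Spermidine was compared with PBS in WT and Aire-KO mTEChi together. No muscle gene was called, of 38 tested, and 0% of all genes were called by edgeR (820 of 18418 had an unadjusted p under 0.05, and DESeq2 called 1). Acta1 was 0 and 18.4 CPM with PBS and 9.91 and 4.38 CPM with spermidine in WT, and 0 and 421 CPM with PBS and 106 and 32.6 CPM with spermidine in Aire-KO. Its log2 difference was -0.91 (SE 1.36), smaller than its standard error, with a call only without the low-count filter (adjusted p = 0.0282, edgeR), and that of Myog was -0.78 (SE 0.74). The difference of the spermidine effect between Aire-KO and WT was not called for any of the 38 genes or for any gene by edgeR (0%, with 619 genes at an unadjusted p under 0.05 and 3 called by DESeq2).

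With topotecan 1 muscle gene was called. Tnnt2, cardiac troponin T (chr1:135836354-135852260, plus strand), was 58.8 and 72.1 CPM with DMSO and 33.8 and 31.9 CPM with topotecan, lower in both (log2 difference -0.99, SE 0.20, adjusted p = 0.0406, edgeR). Of all genes tested 0.652% were called, 0.195% higher and 0.456% lower. The Tnnt2 call was lost without any 1 of the 4 libraries (adjusted p up to 0.308) and in a fit to the 4 DMSO and topotecan libraries alone. In the other 12 mTEChi libraries Tnnt2 was 78.4 to 133 CPM, above both DMSO and topotecan libraries. The mTEChi counts are per gene and do not separate coding from retained-intron forms. In Aire-GFP+ cells the retained-intron form Tnnt2-215 held 42.0 to 51.6% of the Tnnt2 counts.

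The median log2 difference of the 38 genes between topotecan and DMSO was -0.98, against 0.00704 for all genes tested. DMSO replicate 1, the library in which 14 genes were at least 4-fold above replicate 2, is in the control group of this comparison. Acta1 was 84.0 and 0.28 CPM with DMSO and 1.32 and 0 CPM with topotecan (log2 difference -5.93, SE 2.69, adjusted p = 0.345), and without DMSO replicate 1 the difference was 1.10. Without the low-count filter Acta1 was called (log2 difference -5.99, adjusted p = 1.71e-37, edgeR). The libraries are the same as those behind the adjusted p of 0.345, so this call rests on the filter setting. Its p does not reflect the gap between 84.0 and 0.28 CPM within the DMSO group. Myog was 69.7 and 3.08 CPM against 39.7 and 1.59 CPM, a log2 difference of -0.82 that became 2.71 without DMSO replicate 1. The Aire transcript was 1500 and 1180 CPM with DMSO and 819 and 641 CPM with topotecan (log2 difference -0.88, adjusted p = 0.0125, edgeR).

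Between Foxn1-cre Nfe2l2 fl/fl and Foxn1-cre Nfe2l2+/+ libraries 0 of 38 muscle genes and 0% of all genes were called by edgeR, with 973 genes at an unadjusted p under 0.05 and 28 called by DESeq2. Acta1 was 18.9 and 2.56 CPM in Nfe2l2+/+ and 13.0 and 5.48 CPM in Nfe2l2 fl/fl, and its log2 difference was -0.26 (SE 1.81). Myog was higher in both fl/fl libraries, at 53.3 and 42.8 CPM against 21.3 and 26.5 CPM, but its log2 difference of 1.01 (SE 1.00) was not called (adjusted p = 1). Tnni1 had its highest value of the 16 libraries here, at 79.9 and 46.3 CPM in Nfe2l2+/+ and 59.7 and 61.2 CPM in Nfe2l2 fl/fl, with overlapping groups.

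**Figure D4:**
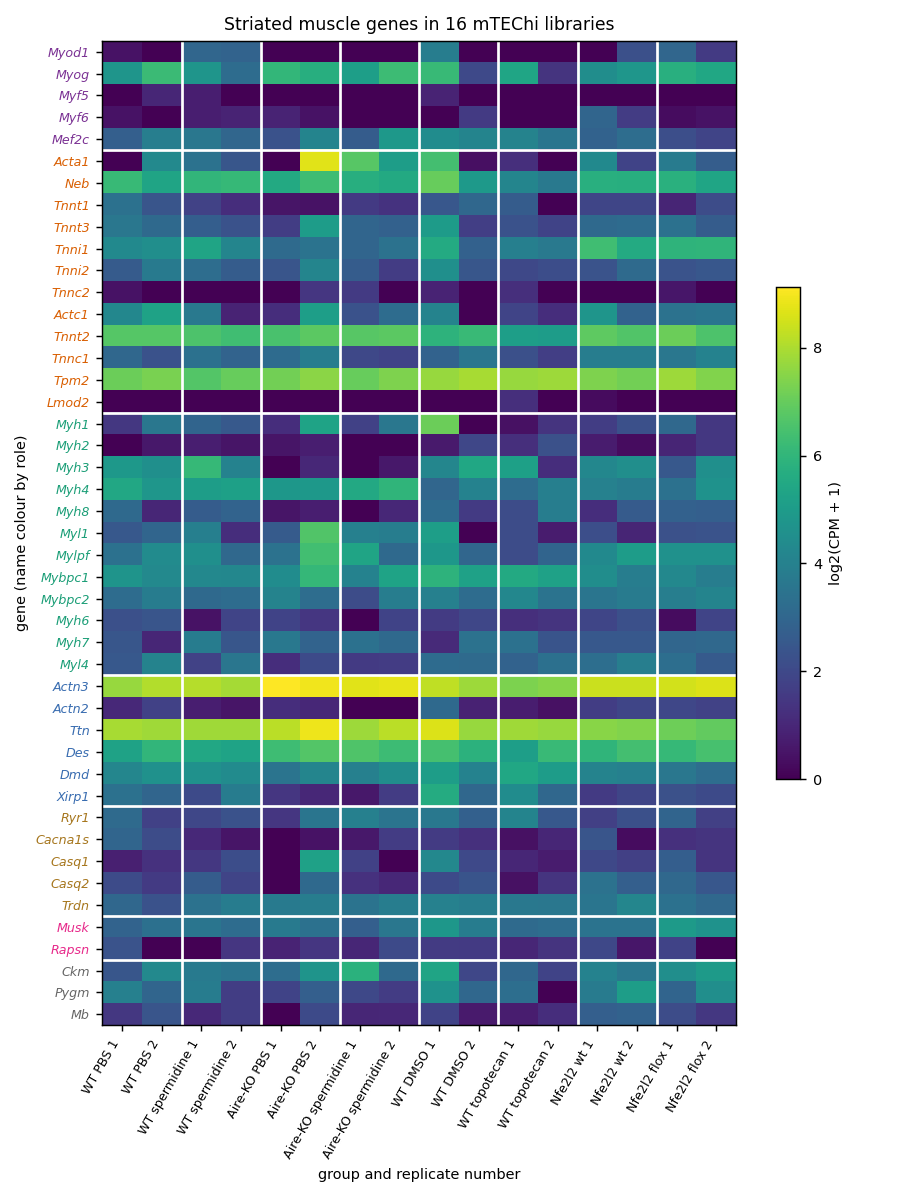
Level of the 45 genes, as log2(CPM + 1) in colour, in the 16 mTEChi libraries, with genes ordered by role and libraries by group and replicate. Acta1, Myl1, Mylpf and Casq1 are brightest in Aire-KO PBS replicate 2, Myh1, Neb and Xirp1 in DMSO replicate 1, and Actn3 is bright in all libraries.

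Over the 16 mTEChi libraries, Myog and Acta1 were compared as the 2 marker genes of the list, the only relation of this kind computed. Pearson's r of log2(CPM + 1) was 0.51 (permutation p = 0.0404) and Spearman's rho 0.47 (permutation p = 0.0709). Without topotecan replicate 2 and DMSO replicate 2, the 2 libraries farthest from the median of Myog, r was 0.29 (permutation p = 0.324). Within the 8 PBS and spermidine libraries r was 0.25 (permutation p = 0.558). Leaving out the extremes of Myog narrows its range, and the set of 8 leaves out further libraries. Neither value therefore shows which libraries the relation rests on. Groups of 2 libraries are too small for a value within each group.

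A separate list held 70 other genes of striated muscle. In Aire-GFP+ cells 64 were tested, of which 7 rose and 27 fell in Aire-KO (the background being 19.0% and 22.3%), with a median log2 difference of -0.81. Nppa, the natriuretic peptide of the atrium, was 50.04, 15.5 and 37.6 CPM in WT and 0.238 and 0.284 CPM in Aire-KO (log2 difference -6.95, SE 0.72, adjusted p = 0.000289, edgeR). Smyd1, a muscle-specific methyltransferase, was 10.1, 13.5 and 7.09 CPM against 0.119 and 0 CPM, on 301 and 1 counts, a ratio of 196 in favour of WT with an exact 95% counting interval of 34.9 to 7760. Both were lower in each Aire-KO library than in every WT library.

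Jph1, junctophilin, which holds the membranes of the calcium release site together, went the other way. It was 7.19, 6.96 and 8.03 CPM in WT and 39.9 and 41.3 CPM in Aire-KO (log2 difference 2.45, SE 0.19, adjusted p = 8.69e-05, edgeR). The Z-disc protein Myot was 10.1, 11.7 and 8.41 CPM against 46.5 and 39.9 CPM (log2 difference 2.098, SE 0.21, adjusted p = 0.00024, edgeR). By the same rule of smallest p, Pln (1.79), Myom2 (1.46), Six4 (1.01) and Chrnd (1.45) were also higher, and Myh13 (-4.26), Klhl40 (-4.65), Atp2a1 (-2.59) and Capn3 (-2.37) lower, all as log2 differences. Myom2 turned to -0.81 with coding transcripts alone.

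In mTEChi 60 of the 70 were tested, of which 5 rose and 9 fell (background 10.3% and 12.5%), with a median of -0.37. Jph1 was 10.9, 10.7, 10.98 and 10.5 CPM in WT and 48.2, 37.3, 52.0 and 40.4 CPM in Aire-KO (log2 difference 2.04, SE 0.23, adjusted p = 3.39e-05, edgeR). Myot was 3.28, 5.34, 7.08 and 6.57 CPM against 31.7, 31.1, 44.2 and 23.8 CPM (log2 difference 2.59, SE 0.29, adjusted p = 2.70e-05, edgeR). Both were higher in all 4 Aire-KO libraries, as they were in Aire-GFP+ cells. Nppa was 11.3, 2.91, 12.0 and 2.63 CPM in WT with no count in any Aire-KO library, at least 22.1-fold lower with 3 counts over the group as the floor (adjusted p = 0.00671, edgeR).

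The further genes called in mTEChi were higher for Actn1 (0.71), Chrnb1 (0.80) and Six4 (0.49) and lower for Myh13 (-3.54), Klhl40 (-3.08) and Myl3 (-3.65), as log2 differences. Myl2, the regulatory light chain of slow and ventricular muscle, had 1 count in Aire-KO against 38 in WT, a ratio of 35.2 in favour of WT with an exact 95% counting interval of 5.95 to 1430. Myoz3, a Z-disc protein of fast fibres, had 3 counts against 33, a ratio of 10.2 with an interval of 3.20 to 52.0. These intervals cover counting error only, since PCR copies without molecular identifiers are not independent molecules. No gene of the 70 was called with spermidine, topotecan or Nfe2l2 fl/fl.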

How the data were processed

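Libraries were made with oligo(dT) priming, Smart-seq2 and Nextera XT, per the labels, so they carry neither strand nor molecular identifiers. For Aire-GFP+ cells the authors deposited kallisto estimated counts and TPM per transcript, and for mTEChi raw counts per gene. The submitters' processing notes name STAR, featureCounts, kallisto, TopHat2 2.1.1, SAMtools 1.3.1 and build mm10; no source used here says which of them made the mTEChi counts. Of 118489 transcripts, 116816 matched GENCODE M21 and were summed to symbols and rounded, and the rest hold 0.541 to 0.578% of counts. Of 55011 mTEChi symbols, 53009 match GENCODE M21.

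edgeR 4.0.16 (R 4.3.3; TMM, filterByExpr, quasi-likelihood test, Benjamini-Hochberg over all genes, calls at adjusted p under 0.05) was fitted to the 5 Aire-GFP+ libraries and, as 8 group means, to the 16 mTEChi libraries. The biological coefficient of variation was 0.272 and 0.269. The steps were tested on simulated data. Replicates differed beyond counting noise (chi-square per degree of freedom 3.05 to 19.7). The labels do not say whether they are separate mice, so p-values of the fits with the filter measure the spread between libraries. Overlap with other genes and shared 31-base words were computed from GENCODE M21, and motifs from RefSeq promoters.

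The members and lists were chosen with earlier results of these data known. Values are given for members called in a comparison, for Myog and Acta1 throughout, for the 3 members of highest mean CPM per role in the control groups, and for up to 6 genes per direction of the separate list by smallest p. Alternatives were library-total and RLE scaling, no filter, DESeq2 1.42.0, a replicate block, single experiments, PBS or spermidine alone and leaving out each library.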

Additional observations from a re-analysis of the deposited data

How the results depend on the processing

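Over the alternatives, 623 values kept direction and side of the threshold, 103 lost a call, 3 gained one and 13 changed sign. In Aire-GFP+ cells 13 to 22 muscle genes were called under every alternative against 16. In mTEChi, the 8 calls for Aire-KO became 2 with PBS alone, 2 with spermidine alone, 16 without the low-count filter and 2 to 6 on leaving out 1 library. Only Actn3 and Myh3 kept their calls in all 16 alternatives there. Without the filter 2 genes were called with spermidine and 1 for the difference of its effects. The 1 call with topotecan became 15 without the filter, 2 with the replicate block, 3 with DESeq2, 0 in a fit to its experiment alone and 0 to 3 on leaving out a library. Same-numbered replicates did not deviate together (correlations -0.0129 to 0.0414). With 2 libraries in most groups this cannot exclude a shared origin, which the labels do not give. The replicate block called 16 genes in Aire-GFP+ cells and 8 in mTEChi. These were not the same genes, since Myh6 in Aire-GFP+ cells (adjusted p = 0.125, edgeR) and Myh8 in mTEChi (adjusted p = 0.0502, edgeR) lost their calls. Without the filter, calls were gained by Myog for Aire-KO and by Acta1 for spermidine and topotecan. These calls rest on the filter setting, and their p-values do not reflect how far apart the replicates were. For most of the alternatives the share of all genes called is not given here. The counts of muscle genes called under them are therefore no result about muscle genes in particular.

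Signs changed, on the log2 scale and mostly without 1 library, as follows. In Aire-GFP+ cells Myog was -0.17 without Aire-KO replicate 2 (up to 0.85 without another library), and with coding transcripts alone, chosen after seeing the data, Cacna1s was -1.20 and Myom2 -0.81. In mTEChi, Acta1 for Aire-KO was -2.28 without Aire-KO PBS replicate 2 (up to 7.83). For spermidine it was 2.98 without WT PBS replicate 2 and 5.27 without Aire-KO PBS replicate 2 (lowest -1.47), and for the difference of effects 11.06 without the latter (lowest -9.23). For topotecan, Myog was 2.71 without DMSO replicate 1 and 0.13 without topotecan replicate 2 (lowest -4.48), and Acta1 was 1.10 without DMSO replicate 1 (lowest -10.07). For Nfe2l2 fl/fl, Acta1 was 0.024 with the replicate block, 1.80 without Nfe2l2+/+ replicate 1 and 0.26 without fl/fl replicate 2 (lowest -1.06). For Myog and Acta1, r fell to 0.29 and 0.25 in the smaller sets. The cause was not tested. Leaving a library out also changes the filter (20082 to 20567 mTEChi genes tested), and a lone library is assumed to vary like the others. At these depths, 3 counts over a group are 0.577 to 0.752 CPM in the Aire-KO mTEChi groups, and changes of members below that were not detectable.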
